A study of Mus musculus with 6 samples.

Results

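The expression of 10 transcription factors of the ETS family, Etv2, Fli1, Erg, Etv6, Ets1, Ets2, Elk3, Spi1, Elf1 and Gabpa, was followed in sorted Flk1+ mesoderm from mouse embryoid bodies. The genes were chosen by name, as ETS factors of blood and endothelium, with earlier results of these data known. Counts of them and of the gene lists below, set beside all probe sets or genes, are therefore descriptions and not independent support. All 23 probe sets whose annotation gives one of them as the single gene symbol were read, out of 45037 probe sets other than controls; they stand for 10 of the 18193 genes on the array with such a probe set. Total RNA of 6 cell samples was measured on 1 Affymetrix array each, with 2 arrays in each of 3 groups.

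The first 2 groups came from a reporter line made from R1 ES cells ((129/Sv x 129/Sv-CP)F1 blastocyst), in which human CD4 (hCD4) was knocked into Scl (gene Tal1) and shows on the cell surface where Scl is on. WT Scl+ cells were Flk1+hCD4+ and WT Scl- cells were Flk1+hCD4-. The third group, SclKO, was Flk1+ cells of an Scl knockout line made from J1 ES cells (129S4/SvJae). Its titles also call it Scl-, while its sorting labels name Flk1 alone. All cells had gone through pre-EB culture with LIF and were sorted from embryoid bodies on day 4. SclKO thus differs from both other groups in Scl, in the parental ES line and, by the sorting labels, in the gate, and these cannot be told apart. Each genotype is represented by 1 ES line, and no label states that replicate arrays came from separate cultures, so every p-value here reflects array-to-array spread alone, which may be technical. The 2 WT groups also carry the reporter allele, which the SclKO label does not name.

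ETS factors share a DNA-binding domain, the ETS domain, which recognises a core of GGAA in the DNA. Etv2 acts early and briefly: it is needed in Flk1+ mesoderm for both blood and endothelium, and it switches on Scl, Fli1 and Gata2. Fli1, Erg, Ets1 and related factors take over in the cells that follow, where they bind with Scl and GATA factors at blood and endothelial enhancers. Gabpa, by contrast, serves housekeeping promoters in nearly all cells.

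Levels are natural logs of the deposited values, and differences between levels are in log units. The deposited scale is not stated; 1 log unit is a 2-fold change if the natural log equals an RMA log2 value, and a 2.72-fold change if the deposited values are linear. Folds are given under both readings, in that order. As linear intensities, 1040 to 1153 probe sets per array would lie above 65535, the ceiling of the scanner. The first fold of each pair is therefore the one to read. The second is kept only because the scale is not stated. The limit for dim probe sets was the 40th percentile of each array, 4.54 to 4.59. All 23 probe sets passed the filter, which asked for 2 arrays above that limit; 19 lay above it on all 6 arrays, and 4 (Fli1 1422024_at, the Spi1 probe set and both Elf1 probe sets) did not. Levels of different probe sets are not compared with each other.

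Tal1, the targeted gene, was at 8.65 and 8.78 in WT Scl+, 6.52 and 7.97 in WT Scl-, and 5.71 and 6.14 in SclKO. The order follows the labels, but WT Scl- replicate 2 lay nearer to WT Scl+ than replicate 1 did. Kdr, which encodes Flk1, lay between 10.83 and 11.35 on all arrays. Of 9 markers of early Flk1+ mesoderm, 8 could be read and all were above the limit on at least 5 arrays. Their mean level was 7.06 to 7.66 in WT Scl+, 8.1 to 8.65 in WT Scl- and 8.21 to 8.63 in SclKO. Markers of primitive red cells ran the other way, with a mean level over 7 genes of 5.52 to 5.84 in WT Scl+, 4.47 to 4.83 in WT Scl- and 4.47 to 4.51 in SclKO (Hbb-y and Hba-a1 were under the limit on every array). Pluripotent markers (6 genes) had a mean level of 6.91 to 8.17 in WT Scl+, 7.59 to 7.97 in WT Scl- and 8.25 to 8.31 in SclKO. Endoderm markers (6 genes) had mean levels of 5.13 to 5.9 and neural markers (4 genes) of 4.05 to 5.01 over the 6 arrays, the highest neural value in WT Scl+ replicate 2. The part of these mixtures in the results was not tested, and in such bulk samples fewer cells of a type cannot be told apart from less RNA per cell.

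Etv2, the early activator, was highest in the knockout. Its level was 10.27 and 10.6 in WT Scl+, 10.48 and 11.12 in WT Scl-, and 11.13 and 11.88 in SclKO. Both SclKO arrays lay above all 4 WT arrays, but SclKO replicate 1 (11.13) only just above WT Scl- replicate 2 (11.12). The WT groups overlapped. Of all probe sets, 24.4% had SclKO above WT Scl+ without overlap, and 21.7% had it above WT Scl-. SclKO was above WT Scl+ by 1.06 log units (SE 0.33, 2.09-fold or 2.9-fold, limma adjusted p = 0.29), or by 0.69 if SclKO replicate 2 is left out. As a block, the replicate number gave the same difference, with limma adjusted p = 0.0952 (0.0792 for Erg 1425370_a_at and 0.0948 for Fli1 1433512_at). Against WT Scl- the difference was 0.7 log units (SE 0.33; adjusted p = 0.902 by limma), which dropped to 0.33 if SclKO replicate 2 is left out and to 0.38 if WT Scl- replicate 1 is. WT Scl+ minus WT Scl- was -0.36 log units (95% confidence interval -1.17 to 0.44; -0.69 if WT Scl- replicate 1 is left out). Etv2 was read by 1 probe set, 1421773_at.

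Fli1 and Erg, close relatives that hold blood stem cell and endothelial programmes, showed the largest differences of the 10 genes in both comparisons with WT Scl+ and ran opposite to Etv2. On probe set 1433512_at, Fli1 was at 8.06 and 9.07 in WT Scl+, 4.64 and 7.28 in WT Scl-, and 4.92 and 5.05 in SclKO. WT Scl+ was above both other groups without overlap, and WT Scl- replicate 1 was as low as the knockout. WT Scl+ exceeded WT Scl- by 2.61 log units (SE 0.82, 6.1-fold or 13.6-fold, limma adjusted p = 0.471). Leaving out WT Scl- replicate 1 gave 1.29 log units, and leaving out replicate 2 gave 3.93. SclKO differed from WT Scl+ by -3.58 log units (SE 0.82; 12.0-fold or 36.0-fold lower; limma adjusted p = 0.202).

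The other Fli1 probe set, 1422024_at, lay lower on the array and gave the same order. Its level was 6.47 and 7.23 in WT Scl+, 2.93 and 5.84 in WT Scl-, and 3.14 and 4.37 in SclKO. Both SclKO arrays and WT Scl- replicate 1 were under the limit, so their exact levels are not known. With such values set to the limit of their array, WT Scl+ minus WT Scl- was 1.65 log units, and SclKO was at least 4.89-fold or 9.86-fold lower than WT Scl+.

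Erg followed Fli1 on both of its probe sets. On 1440244_at its level was 8.45 and 9.15 in WT Scl+, 4.88 and 7.58 in WT Scl-, and 5.29 and 6.13 in SclKO. On 1425370_a_at it was 7.43 and 8.41, then 5.39 and 6.97, then 4.93 and 5.66. WT Scl+ again stood above both other groups, and WT Scl- replicate 2 lay between. WT Scl+ minus WT Scl- was 2.57 log units (SE 0.84, 5.93-fold or 13.0-fold) and 1.74 (SE 0.59), with limma adjusted p of 0.474 and 0.485. Without WT Scl- replicate 1 these differences were 1.22 and 0.94, and without replicate 2 the first was 3.92. SclKO differed from WT Scl+ by -3.09 (SE 0.84) and -2.62 log units (SE 0.59), with limma adjusted p of 0.255 and 0.197.

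**Figure D1:**
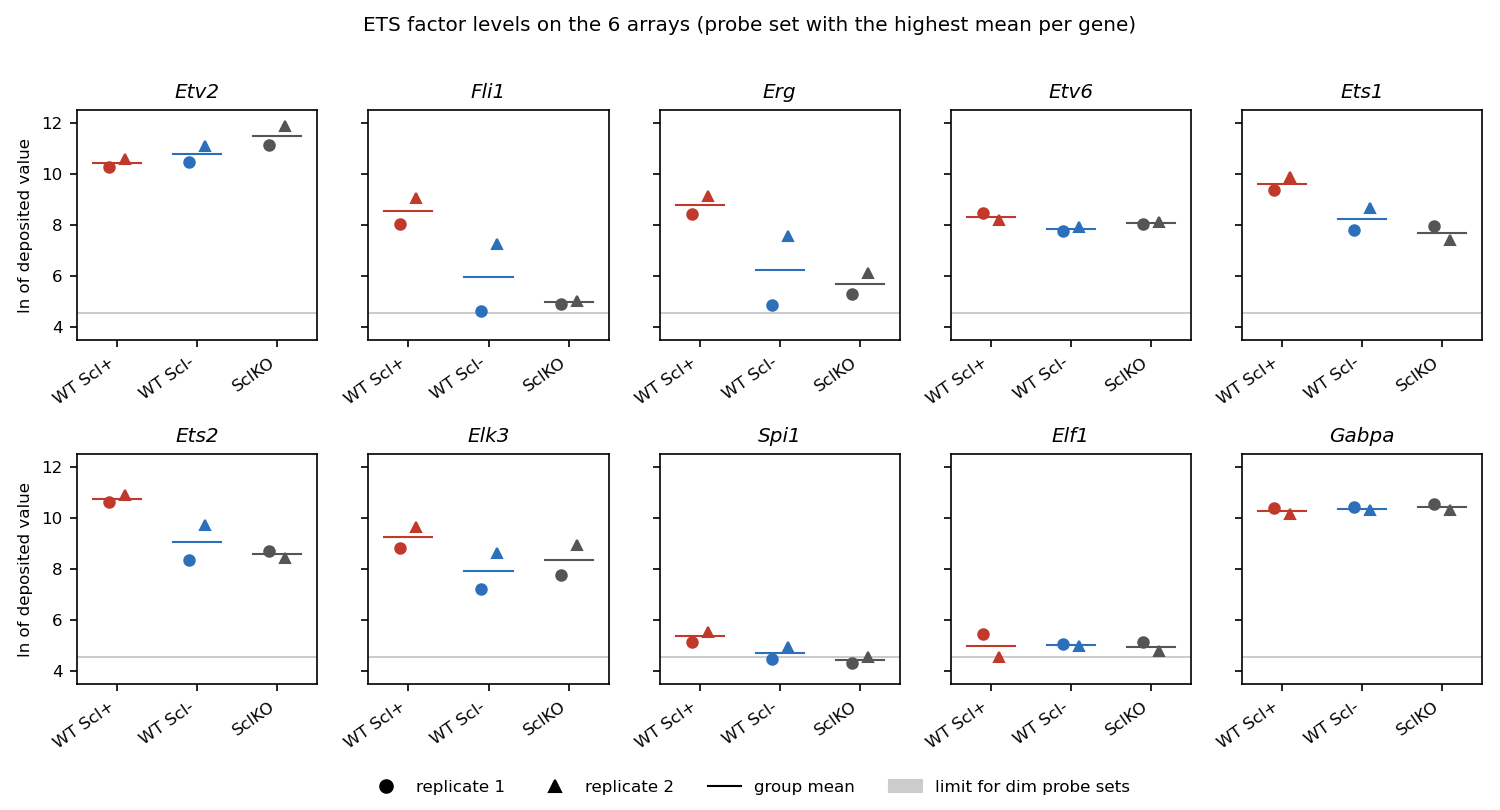
Level of the 10 ETS factors on each array, as the natural log of the deposited value (vertical axis), by group (horizontal axis), for the probe set with the highest mean per gene. Circles are replicate 1, triangles are replicate 2, horizontal bars are group means and the grey band is the limit for dim probe sets, 4.54 to 4.59; Fli1 reaches 9.07 in WT Scl+ and 5.05 in SclKO, while Etv2 reaches 11.88 in SclKO.

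The stretches just before the start sites of these genes are shown so that their ETS cores can be read: Etv2 and Erg, whose levels ran in opposite directions, Ets2, and the housekeeping factor Gabpa. RefSeq (GRCm38.p6) gave a promoter window for 7 of the 10 genes, with 10 windows in all; Fli1, Ets1 and Spi1 had none. The 250 bases before each start were searched on both strands for GGAA, for the longer ETS core CCGGAA (which contains GGAA), for GATA, the core of GATA factor sites, and for CAGNTG, an E-box of the kind Scl binds with its partners. Capitals mark GGAA, or TTCC where it lies on the other strand. Etv2 lies on the minus strand (chr7:30635853-30636102), starts 1 and 3 of Erg on the minus strand (chr16:95586594-95586843 and chr16:95459349-95459598), Ets2 on the plus strand (chr16:95702157-95702406) and Gabpa on the plus strand (chr16:84834874-84835123).

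Etv2: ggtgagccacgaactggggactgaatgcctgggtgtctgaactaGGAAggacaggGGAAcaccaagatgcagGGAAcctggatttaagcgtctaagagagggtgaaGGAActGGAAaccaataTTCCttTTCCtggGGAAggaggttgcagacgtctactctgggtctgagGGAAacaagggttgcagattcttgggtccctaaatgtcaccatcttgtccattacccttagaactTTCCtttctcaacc
Erg start 1: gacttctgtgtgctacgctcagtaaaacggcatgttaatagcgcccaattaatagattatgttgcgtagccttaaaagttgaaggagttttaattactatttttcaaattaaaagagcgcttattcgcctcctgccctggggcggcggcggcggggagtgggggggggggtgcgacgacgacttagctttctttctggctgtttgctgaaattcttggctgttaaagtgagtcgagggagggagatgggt
Erg start 3: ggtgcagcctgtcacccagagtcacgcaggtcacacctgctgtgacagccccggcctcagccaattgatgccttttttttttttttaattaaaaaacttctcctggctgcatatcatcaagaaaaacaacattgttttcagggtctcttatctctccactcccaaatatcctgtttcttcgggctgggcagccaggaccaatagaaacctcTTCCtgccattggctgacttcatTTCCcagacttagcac
Ets2: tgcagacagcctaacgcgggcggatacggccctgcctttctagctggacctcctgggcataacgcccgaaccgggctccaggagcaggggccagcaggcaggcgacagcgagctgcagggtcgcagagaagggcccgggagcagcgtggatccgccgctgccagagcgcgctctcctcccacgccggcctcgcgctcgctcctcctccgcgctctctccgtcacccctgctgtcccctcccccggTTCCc
Gabpa: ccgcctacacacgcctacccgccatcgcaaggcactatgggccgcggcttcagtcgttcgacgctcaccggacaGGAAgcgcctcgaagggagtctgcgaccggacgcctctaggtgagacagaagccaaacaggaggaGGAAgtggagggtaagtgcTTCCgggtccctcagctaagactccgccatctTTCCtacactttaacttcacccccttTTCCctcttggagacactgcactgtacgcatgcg

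The Etv2 window held 10 matches to GGAA, a number that 0.192% of the 32851 windows of this length in the table reach or pass; the median was 3. The other motifs searched were not found in it. The Gabpa window held 5 matches to GGAA (18.0% of windows hold as many), 1 of them within CCGGAA (12.0% of windows hold at least 1). Erg had 0 matches to GGAA at its first start, 4 at the second and 2 at the third. The third Erg start also had 3 matches to GATA, at 139, 102 and 84 bases before the start (9.62% of windows hold as many), and 1 to CAGNTG (44.8% of windows hold at least 1). Ets2 had 1 match to GGAA, 5 bases before the start (93.4% of windows hold at least 1), and 1 to GATA (53.6% of windows). Etv6 had 3 matches to GGAA, Elk3 had 2, and Elf1 had 2 at its first start and 0 at its second. A match is only a string of letters; no binding was measured here, and a window without a match says nothing about a factor.

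Ets1 and Ets2, the founding members of the family, also lay highest in WT Scl+. Ets1, which acts in endothelial and lymphoid cells, was at 9.36 and 9.88 in WT Scl+, 7.83 and 8.66 in WT Scl-, and 7.97 and 7.43 in SclKO on probe set 1426725_s_at. Both WT Scl+ arrays lay above the other 4. The 4 Ets1 probe sets gave differences of 0.95 to 1.37 log units for WT Scl+ minus WT Scl- and -1.92 to -1.41 for SclKO minus WT Scl+. The groups did not overlap on any of the 4 in either comparison. Over all probe sets, 16.6% lay higher without overlap in the first and 18.2% lower in the second. Leaving out WT Scl- replicate 1 brought the first difference to 0.71 on 1422027_a_at, 0.55 on 1422028_a_at and 0.7 on 1452163_at. Leaving out WT Scl+ replicate 2 brought 1422027_a_at to 0.66 and its difference between SclKO and WT Scl+ from -1.41 to -0.85. On 1426725_s_at no array moved either difference by over 1.5 times. For 1426725_s_at, SclKO was 3.79-fold or 6.82-fold below WT Scl+ (-1.92 log units, SE 0.35, limma adjusted p = 0.151). This was the lowest adjusted p of any of the 23 probe sets in any comparison of the main fit, which had no block.

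Ets2, a nuclear target of Ras and ERK signalling, was at 10.62 and 10.92 in WT Scl+, 8.37 and 9.75 in WT Scl-, and 8.71 and 8.46 in SclKO on probe set 1416268_at. WT Scl+ stood clear of both other groups, which overlapped with each other. WT Scl+ exceeded WT Scl- by 1.71 log units (SE 0.44, 3.27-fold or 5.52-fold, limma adjusted p = 0.439), or by 1.02 if WT Scl- replicate 1 is left out. SclKO differed from WT Scl+ by -2.18 log units (SE 0.44; limma adjusted p = 0.173). The probe set 1447685_x_at gave 1.45 and -1.76 log units, the first 0.96 if WT Scl- replicate 1 is left out. The last Ets2 probe set, 1437809_x_at, had groups that overlapped in both comparisons, since WT Scl+ replicate 1 was at 5.7 and replicate 2 at 7.63. The suffix x marks probe sets whose probes can also match other transcripts.

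Elk3 and Etv6, which are known mainly as repressors, differed in order from Fli1, Erg, Ets1 and Ets2. Their SclKO means lay above their WT Scl- means, but only Elk3 1417662_at had an unadjusted limma p under 0.05 for that difference. Elk3 (also called Net), a ternary complex factor that works with Srf, was at 7.86 and 8.01 in WT Scl+, 6.56 and 7.06 in WT Scl-, and 7.39 and 7.87 in SclKO on probe set 1417662_at. Here it was WT Scl- that stood lowest, and the knockout reached the WT Scl+ range. WT Scl+ exceeded WT Scl- by 1.12 log units (SE 0.25; adjusted p = 0.439 by limma), and SclKO exceeded it by 0.82 (SE 0.25; adjusted p = 0.886 by limma). The 4 Elk3 probe sets all had WT Scl+ above WT Scl- without overlap, by 0.89 to 1.32 log units. Of all probe sets, 16.6% had WT Scl+ higher without overlap. If WT Scl- replicate 1 is left out, 1448797_at gave 0.62 and 1435143_at gave 0.47, and if WT Scl+ replicate 2 is, 1445886_at gave 0.31. In none of the 4 did SclKO and WT Scl+ separate, with differences of -0.89 to -0.3. SclKO minus WT Scl- was 0.06 to 0.82 log units, largest on 1417662_at, and only there did the groups not overlap (21.7% of all probe sets had SclKO higher without overlap). On 1448797_at, the Elk3 probe set with the highest mean, it was 0.43 (SE 0.59), or -0.27 if WT Scl- replicate 1 is left out.

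Etv6 (also called Tel), needed for blood stem cells in the marrow and for yolk sac vessels, differed by less than 1 log unit in every comparison. It was at 8.0 and 7.89 in WT Scl+, 7.01 and 7.28 in WT Scl-, and 7.15 and 7.58 in SclKO on probe set 1423401_at. WT Scl+ lay above the other 4 arrays. WT Scl+ minus WT Scl- was 0.8 log units (SE 0.21, 1.75-fold or 2.23-fold, limma adjusted p = 0.439) and 0.49 (SE 0.17) on the other probe set, 1434880_at. SclKO minus WT Scl+ was -0.58 (-0.37 if SclKO replicate 1 is left out) and -0.26 log units. SclKO minus WT Scl- was 0.22 (SE 0.21), with groups that overlapped, and 0.24 (SE 0.17).

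Spi1, Elf1 and Gabpa complete the set. Spi1, which encodes PU.1, the master factor of myeloid and B cells, was dim, at 5.17 and 5.56 in WT Scl+. It was at 4.5 and 4.97 in WT Scl- and at 4.32 and 4.58 in SclKO; both SclKO arrays and WT Scl- replicate 1 were under the limit of their array. WT Scl+ was above WT Scl- by 0.63 log units (SE 0.24; adjusted p = 0.514 by limma), or 0.39 if WT Scl- replicate 1 is left out. With dim values set to the limit, SclKO was at least 1.74-fold or 2.23-fold lower than WT Scl+. Elf1, a factor of blood and endothelial genes, was dim: the better probe set, 1417540_at, was at 5.46 and 4.57 in WT Scl+, 5.06 and 5.01 in WT Scl-, and 5.15 and 4.8 in SclKO. All 3 groups overlapped, with differences of -0.06 to -0.02 log units. The other Elf1 probe set, 1439319_at, was above the limit on 2 arrays only, 1 of WT Scl+ and 1 of SclKO.

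Gabpa, the DNA-binding subunit of the GABP complex, was at 10.39 and 10.17 in WT Scl+, 10.43 and 10.33 in WT Scl-, and 10.55 and 10.32 in SclKO on probe set 1450665_at. The groups overlapped throughout. WT Scl+ minus WT Scl- was -0.1 log units (95% confidence interval -0.52 to 0.32), and SclKO minus WT Scl+ was 0.15 (-0.27 to 0.57). The other probe set, 1450664_at, gave -0.22 and 0.29 log units.

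Setting WT Scl+ beside WT Scl- asks what accompanies Scl within WT Flk1+ cells. By limma, 0 of the 23 probe sets passed an adjusted p under 0.05, as did 0 of all 28363 probe sets tested (0.0%). At an unadjusted p under 0.05, 15 of the 23 lay higher in WT Scl+ and 0 lower, where 4.44% of all probe sets lay higher and 4.94% lower (1260 and 1400, or 1492 and 1108 after median centring of the arrays, where the count of 15 stayed). Groups did not overlap for 17 of the 23, all with WT Scl+ higher, against 16.6% of all probe sets. The median difference was 0.97 log units over the 23, and -0.04 over all probe sets tested. The 15, with Etv2, Elf1, Gabpa, 2 probe sets of Elk3 and 1 of Ets2 outside it, became 6 without WT Scl- replicate 1 (1.79% of all probe sets lay higher there) and 7 without WT Scl+ replicate 2 (3.79%). With 1 probe set per gene, 6 of 10 genes lay higher at an unadjusted p under 0.05 (Fli1, Erg, Etv6, Ets1, Ets2 and Spi1), against 5.19% of the 12922 genes tested. An exact permutation test of 1 probe set over 2 against 2 arrays cannot give a two-sided p below 0.333.

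**Figure D2:**
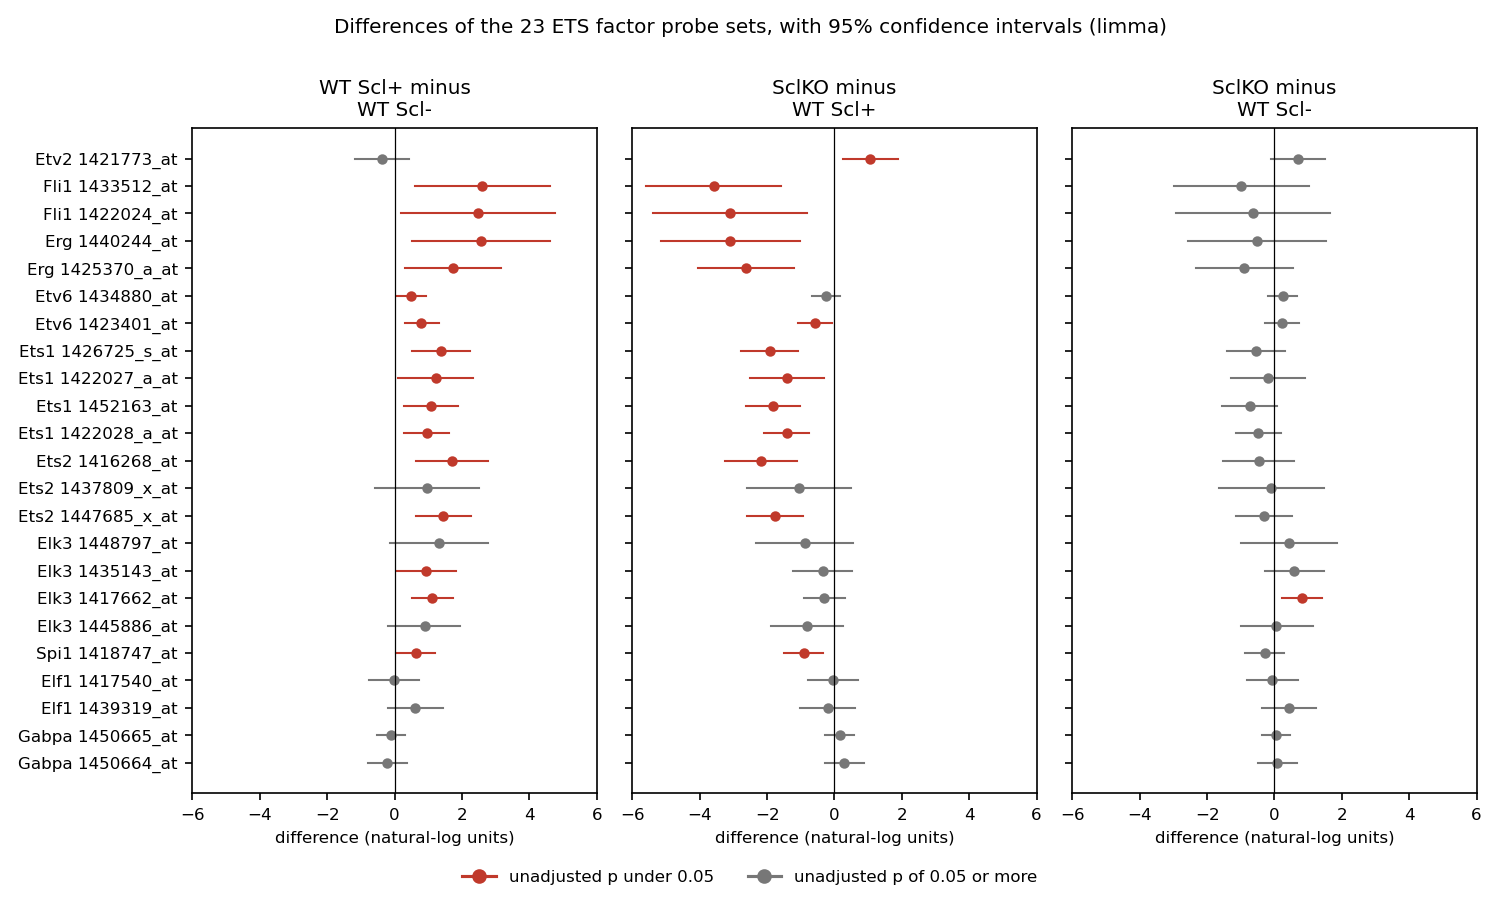
Difference between groups in natural-log units (horizontal axis) for each of the 23 probe sets (vertical axis), in 3 panels for the 3 comparisons; points are limma estimates and lines are 95% confidence intervals, in red where the unadjusted p was under 0.05. In the left panel 15 probe sets are red, all to the right of 0; in the middle panel 12 are red to the left and only Etv2 to the right; in the right panel 1 is red, for Elk3.

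SclKO against WT Scl+ sets the knockout beside the cells in which Scl is on, and shares the WT Scl+ arrays with the comparison above. At an adjusted p under 0.05, 0 of the 23 probe sets passed by limma, against 3 of 28363 (0.0106%). With the replicate number as a block, 0 of the 23 and 6 of all probe sets passed. At an unadjusted p under 0.05, 12 lay lower in SclKO and 1 higher, where 5.68% of all probe sets lay lower and 7.35% higher. The 12 came from Fli1, Erg, Ets1 and Ets2, with 1 probe set each of Etv6 and Spi1, and the 1 higher was Etv2. Groups did not overlap for 13 probe sets with SclKO lower (18.2% of all probe sets) and 1 with SclKO higher (24.4%). The median difference was -0.91 log units over the 23 and 0.05 over all. The count of 13 at an unadjusted p under 0.05 in either direction became 8 without SclKO replicate 1 (6.74% of all probe sets).

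SclKO against WT Scl- compares cells without Scl with WT cells in which the reporter is off. At an adjusted p under 0.05, 0 of the 23 probe sets passed by limma (0.0106% of all did). Only Elk3 1417662_at had an unadjusted p under 0.05, higher in SclKO, where 2.7% of all probe sets did so and 2.77% lay lower. Groups did not overlap for 4 probe sets with SclKO higher (Etv2, 1 each of Etv6, Elk3 and Elf1; 21.7% of all) and for 1 with SclKO lower (Ets1 1422028_a_at; 19.5% of all). The median difference was -0.09 log units over the 23 and 0.01 over all. These counts moved with the WT Scl- array used. Without replicate 1, 9 of the 23 lay lower in SclKO at an unadjusted p under 0.05 and 0 higher, where 2.47% of all probe sets lay lower and 1.7% higher. Without replicate 2, 3 lay higher and 0 lower, where 1.71% of all lay higher and 1.49% lower. For Fli1 1433512_at the difference was -0.98 log units with all arrays, -2.3 without WT Scl- replicate 1 and 0.35 without replicate 2. With the replicate number as a block, 4 probe sets rather than 1 had an unadjusted p under 0.05. These were Etv2 and 2 of Elk3, higher in SclKO, and Erg 1425370_a_at, lower. Of all probe sets, 3.68% lay higher and 3.64% lower under the block.

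The WT Scl- arrays differed from each other more in these genes than in most. Replicate 2 minus replicate 1 exceeded 1 log unit in size for 7 of the 23 probe sets, against 1.9% of all probe sets tested (7 and 1.33% with values under the limit set to it), and the median size was 0.75 log units against 0.18. Replicate 2 was the higher array for 20 of the 23, against 48.3% of all. The gap was 2.64 log units on Fli1 1433512_at and at least 1.26 on the dimmer Fli1 probe set, where replicate 1 was under the limit; it was 2.7 and 1.58 on those of Erg and 1.38 on Ets2 1416268_at. WT Scl+ arrays exceeded 1 log unit for 4 of the 23 (6.83% of all) and SclKO arrays for 2 (1.31% of all). Median sizes there were 0.53 log units in WT Scl+ (0.3 over all) and 0.42 in SclKO (0.19 over all). Replicate 2 was also the higher array for 18 of the 23 in WT Scl+ (40.9% of all) and 15 in SclKO (45.5% of all). The position of each WT Scl- array was expressed as a share of the way from the SclKO mean to the WT Scl+ mean, for the 11 probe sets of Fli1, Erg, Ets1 and Ets2, in each of which those means lay over 1 log unit apart. Replicate 1 lay between -26.9% and 19.9% of the way (median -10.1%) and replicate 2 between 36.5% and 67.2% (median 60.6%). The 67.2% is that of Fli1 1422024_at, which rests on values under the limit; with those set to it, its WT Scl- arrays stood at 0.408% and 55.6%. Etv2, whose means also lay over 1 log unit apart but in the opposite direction, stood at 96.1% in replicate 1 and 35.6% in replicate 2. Tal1 stood at 21.2% and 73.3% on the same arrays, and the mean level of the endothelial genes below at 5.19 and 6.48. Their part in the gap was not tested.

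**Figure D3:**
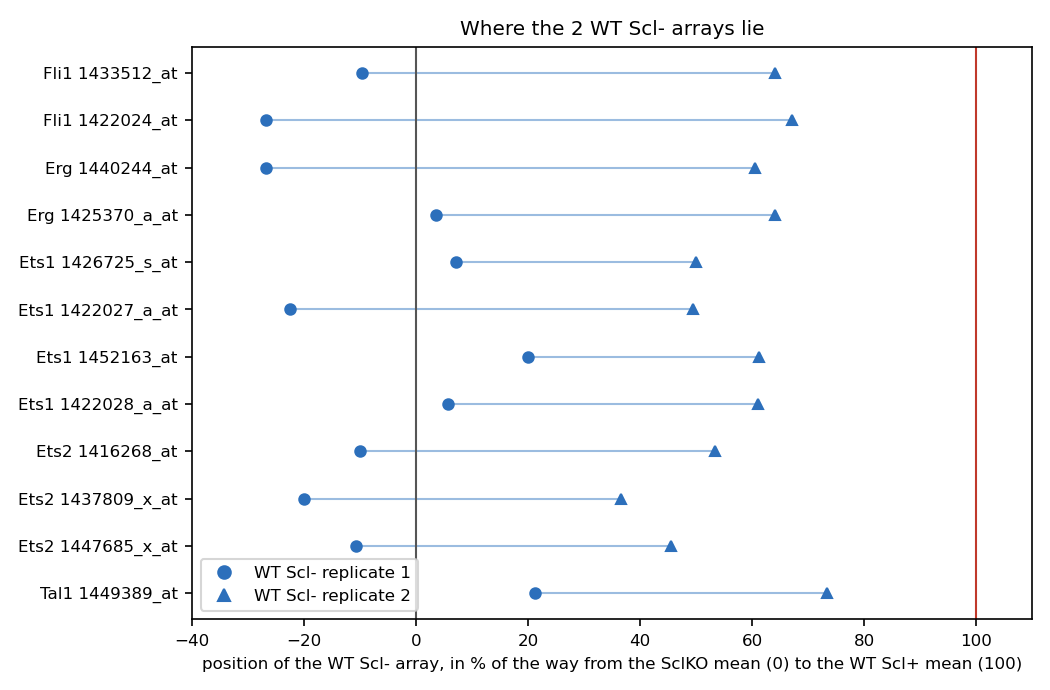
Position of WT Scl- replicate 1 (circles) and replicate 2 (triangles) for the 11 probe sets of Fli1, Erg, Ets1 and Ets2 and for Tal1 (vertical axis), in percent of the way from the SclKO mean at 0 (grey line) to the WT Scl+ mean at 100 (red line). Every circle lies at or below 21.2% and every triangle at or above 36.5%.

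Likeness between genes was measured as the root mean square difference of 2 profiles over the 6 arrays, each centred on its own mean, and is a description with no test. For Erg 1440244_at, the closest probe set of another gene was Fli1 1422024_at at 0.14 log units, with 0 of the 12917 genes outside the set closer, but that probe set was under the limit on 3 of the 6 arrays. With all values under the limit set to it, Fli1 came within 0.32 of Erg, on 1433512_at, and 6 genes outside the set were closer. In the values as measured, the nearest such genes were Tspan8 (0.15), Ramp2, a partner of the adrenomedullin receptor Calcrl (0.18), Csgalnact1 (0.23), Atp2a3 (0.27) and Laptm5, a lysosomal protein of blood cells (0.29). Tspan8 and Atp2a3 were under the limit on 3 arrays each and stood at 0.61 and 0.5 with such values set to it, Csgalnact1 was on 2 (0.25), and Ramp2 (0.18) and Laptm5 (0.29) were on none. For Fli1 1433512_at the closest genes were Zfp711 (0.24), the growth factor gene Igf1 (0.26), Csgalnact1 (0.29), Ikzf1, a lymphoid and early blood factor (0.33), and Prkar2b (0.33). Zfp711, Igf1 and Csgalnact1 were under the limit on 3 arrays each and Ikzf1 on 2; set to it they stood at 0.54, 0.97, 0.36 and 0.34, while Prkar2b was on none. Erg came within 0.32 of it, with 3 genes outside the set closer (2 with dim values at the limit). Ets2 (0.72) and Ets1 (0.91) were the next members, with 0.426% and 0.805% of genes closer. Etv2 was far from Fli1 at 2.02, with 95.7% of genes closer. Etv2 itself was nearest to Col14a1 (0.15), Dmrt3 (0.17), Tnk1 (0.17), Ctsc, a lysosomal protease (0.17), and Prdm8 (0.2). Of these, Ctsc was at 8.86 and 9.11 in WT Scl+, 9.37 and 9.72 in WT Scl-, and 10.04 and 10.37 in SclKO. The probe sets of Col14a1, Dmrt3, Tnk1 and Prdm8 were dim, with highest levels of 6.11, 6.12, 5.47 and 5.15. Col14a1 and Dmrt3 were under the limit on 1 array each, and Tnk1 and Prdm8 on 4 each. With such values set to it, these genes stood at 0.15, 0.17, 0.29 and 0.36 from Etv2. Then 0, 1, 59 and 268 genes outside the set were closer.

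Of 16 further genes of the ETS family, 14 could be read and 9 were tested; Elf5, Ehf, Spib, Spic and Spdef were under the limit on every array. In WT Scl+ against WT Scl-, 0 of the 9 had an adjusted p under 0.05 by limma and 0 an unadjusted p under 0.05 (5.19% of all genes were higher and 3.44% lower), with a median difference of -0.06 log units. The largest differences as measured were those of Elf3, an epithelial factor (-0.76, SE 0.44), and Etv5, a factor induced by FGF signalling (-0.62, SE 0.34). Elf4 (0.4, SE 0.27) and Erf, a repressor controlled by ERK (0.4, SE 0.19), came next. Elf3 was under the limit on WT Scl+ replicate 2. With that value set to it, the Elf3 difference was -0.55, smaller than that of Etv5. Etv5 was at 8.69 and 7.89 in WT Scl+, 9.26 and 8.57 in WT Scl-, and 9.48 and 9.4 in SclKO. Both SclKO arrays lay above all WT arrays, as for Etv2, and SclKO exceeded WT Scl+ by 1.15 log units (SE 0.34; adjusted p = 0.272 by limma). In that comparison Etv5 was the 1 gene higher and Etv3 (-0.57, SE 0.15) the 1 gene lower at an unadjusted p under 0.05, against 6.61% and 6.24% of all genes. The other 2 tested Etv5 probe sets gave 1.14 and 1.36, while the other 3 of Etv3 gave 0.04 to 0.26. Between SclKO and WT Scl-, 0 of the 9 had an unadjusted p under 0.05 (2.75% of all genes were higher and 2.07% lower); Etv5 differed by 0.53 (SE 0.34) and Elf3 by -0.45 (SE 0.44).

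Genes of proteins that bind beside ETS factors were mostly highest in WT Scl+. Gabpb2, Srf, Crebbp and Ep300 were not, with WT Scl+ minus WT Scl- at 0.0, 0.02, -0.09 and 0.02 log units. Foxc1, above the limit on 1 array only, was not tested. Of 13 partner genes, 12 were tested, and in WT Scl+ against WT Scl- 7 lay higher and 0 lower at an unadjusted p under 0.05, against 5.19% and 3.44% of all genes; 0 passed the adjusted limma test. Lyl1, the closest relative of Scl, was higher by 2.11 log units (SE 0.45), Gata2, a factor of blood progenitors, by 1.83 (SE 0.55), Gata1, the red cell factor, by 1.7 (SE 0.44), and Foxc2, which binds with Etv2 at endothelial enhancers, by 1.48 (SE 0.3). Both WT Scl- arrays of Foxc2 were under the limit, and with dim values set to it the difference was 0.88. Tal1 is 1 of the 7, and its locus carried the reporter of the gate. The median over the list was 1.22 log units, or 0.63 if WT Scl- replicate 1 is left out. With all values under the limit set to it, the list median was 0.93. Beside WT Scl+, SclKO had 5 genes lower and 0 higher (6.24% and 6.61% of all), with a median of -0.8. Beside WT Scl-, Lyl1 (-1.36, SE 0.45; both SclKO arrays under the limit) and Tal1 (-1.32, SE 0.46) lay lower and Foxc2 (0.8, SE 0.3) higher at an unadjusted p under 0.05 (2.07% and 2.75% of all). For Foxc2 both WT Scl- arrays were under the limit, and its difference was 0.2 with them set to it; that of Lyl1 was then -0.94.

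Endothelial genes with known ETS sites lay highest in WT Scl+ as well. Of 26 genes, all were read and 23 tested; Emcn and Robo4 were under the limit on every array and Dll4 on 5 of 6. In WT Scl+ against WT Scl-, 17 lay higher and 0 lower at an unadjusted p under 0.05 (5.19% and 3.44% of all genes), 0 passed the adjusted limma test, and the median was 1.43 log units (-0.02 over all genes). Tek, the angiopoietin receptor, differed by 3.25 log units (SE 1.32), Sox18 by 2.74 (SE 0.98), Esam, an endothelial adhesion molecule, by 2.46 (SE 0.96) and Rhoj, a small GTPase, by 2.33 (SE 0.66). WT Scl- replicate 1 was under the limit for Tek, Sox18 and Esam, whose differences were 2.93, 2.47 and 2.2 with it set there. The median was 0.78 without WT Scl- replicate 1. From WT Scl+ to SclKO, 15 lay lower and 0 higher (6.24% and 6.61% of all), with a median of -1.4. Between SclKO and WT Scl-, 0 of the 23 had an unadjusted p under 0.05 (2.75% of all genes higher and 2.07% lower), and the median was 0.02; it was -0.68, with all 23 negative, without WT Scl- replicate 1 and 0.68, with 18 positive, without replicate 2. There, with all arrays, Sox7 differed by -1.49 log units (SE 0.83) and Sox18 by 0.79 (SE 0.98). Each had 1 array under the limit, and they differed by -1.15 and 0.52 with that value set to it. The other tested Sox7 probe set gave -0.44.

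Of 16 blood genes with known ETS sites, 14 were read and 8 tested. Pf4, Csf3r, Itgam, Cd53, Vav1 and Ptprc were under the limit on every array. In WT Scl+ against WT Scl-, 5 lay higher and 0 lower at an unadjusted p under 0.05 (5.19% and 3.44% of all genes), 0 passed the adjusted limma test, and the median was 0.83 log units. Ikzf1 differed by 2.85 (SE 0.65), Laptm5 by 2.46 (SE 0.98), Was, an actin regulator of blood cells, by 1.31 (SE 0.3), and Itga2b, the CD41 antigen of the first blood progenitors, by 1.12 (SE 0.36). Ikzf1 was under the limit on WT Scl- replicate 1 and SclKO replicate 1, and differed by 2.77 with these set to it. A second Ikzf1 probe set gave 1.14. From WT Scl+ to SclKO, 4 lay lower and 0 higher (6.24% and 6.61% of all), with a median of -1.07. Between SclKO and WT Scl-, 0 of the 8 had an unadjusted p under 0.05 (2.75% of all genes higher and 2.07% lower), the median was -0.09, and Ikzf1 and Itga2b differed by -0.81 (SE 0.65) and -0.66 (SE 0.36).

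**Figure D4:**
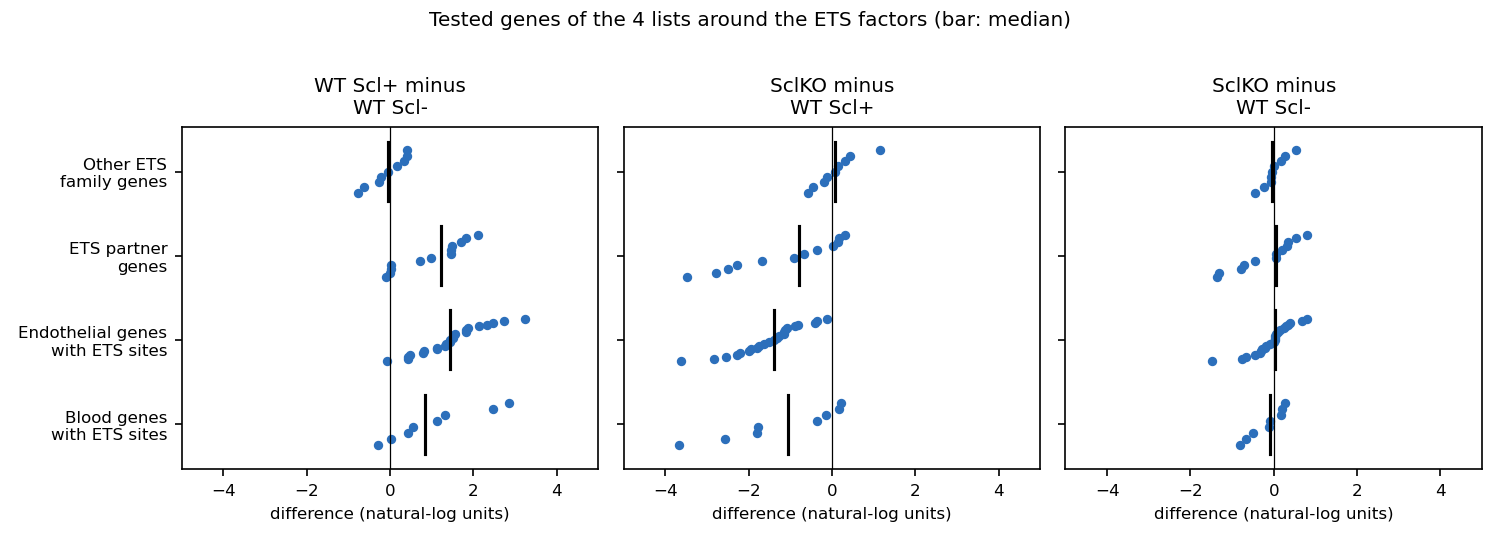
Difference between groups in natural-log units (horizontal axis) for each tested gene of 4 lists (vertical axis): other ETS family genes, partner genes of ETS factors, and endothelial and blood genes with known ETS sites, in 3 panels for the 3 comparisons. Points are genes, sorted within a list, and bars are medians; the endothelial median is 1.43 in the left panel, -1.4 in the middle and 0.02 in the right.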

How the data were processed

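RNA of 6 samples was hybridised to Affymetrix arrays. The submitters' processing notes name RMA, affy and limma without versions. The deposited table holds 1 processed value per probe set and array, of a scale not given in the sources used here. Between 1040 and 1153 probe sets per array exceed 65535, the ceiling of a 16-bit scanner, and natural logs were taken. Array medians were 5.2 to 5.25. Groups and replicate numbers come from the sample titles.

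Of 45101 probe sets, 64 controls were left out and 28363 exceeded their array's 40th percentile on at least 2 arrays. Symbols (1 for 34945 probe sets) were updated through Entrez identifiers. Group means were fitted per probe set over the 6 arrays together with limma 3.58.1 in R 4.3.3 (two-sided eBayes, residual degrees of freedom 3, prior 3.13; Benjamini-Hochberg). Arrays have no read depth; the number of arrays limits how precise a difference is. The fit was tested on simulated data. The named genes are the 10 members, the 5 nearest genes by likeness to Etv2, Fli1 and Erg, and the genes of each list with the 4 largest differences in WT Scl+ against WT Scl- and the 2 largest in SclKO against WT Scl-. Etv3, Gabpb2, Srf, Crebbp, Ep300 and the list genes under the limit are named after their values were seen. For lists, the probe set with the highest mean stands for a gene. Members and lists were chosen with earlier results of these data known. Alternatives were other filters, 1 probe set per gene, quantile normalization, median centring, pairwise fits, a trend and robust prior, the replicate number as a block, and leaving out each array. Setting values under the limit to it, for likeness, replicate gaps and lists, was chosen after seeing the data. Deviations of same-numbered arrays from their group means correlated at 0.21, 0.24 and 0.21 between pairs of groups, over 28363 probe sets; what the numbers stand for is not given in the labels, so the pairing rests on this check.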

Additional observations from a re-analysis of the deposited data

How the results depend on the processing

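No probe set of the 10 genes passed an adjusted p under 0.05 in the fit of all 6 arrays, nor under any alternative. Settings that keep the arrays and the scale leave each difference as it is by construction, so stability of direction can be read only from the others, given below. Over all probe sets, calls in WT Scl+ against WT Scl- numbered 0, and 0 to 46 when one array was left out, with 46 without WT Scl+ replicate 1. For SclKO against WT Scl+ the 3 calls became 1 with 1 probe set per gene, 27 with only the 4 arrays compared, 6 with the replicate number as a block, 32 with a trend and robust prior, and 0 to 1172 with one array left out, the 1172 again without WT Scl+ replicate 1. For SclKO against WT Scl- the 3 calls became 1 with 1 probe set per gene, 6 with the filter at the 60th percentile, 11 with a trend and robust prior, and 0 to 3 with one array left out. Median centring turned the unadjusted split over all probe sets in WT Scl+ against WT Scl- from 1260 higher and 1400 lower to 1492 and 1108, and left the members at 15.

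Member probe sets at an unadjusted p under 0.05 numbered 6 to 15 in WT Scl+ against WT Scl-, 8 to 15 in SclKO against WT Scl+ and 0 to 9 in SclKO against WT Scl- with one array left out. In the last, the replicate block gave 4 and the trend and robust prior 2. Apart from the 6 calls and these 4 probe sets, the block moved no count by over 1.5 times. The share of all probe sets at an unadjusted p under 0.05 also moved with the array left out. In both comparisons with WT Scl+ that share was largest without WT Scl+ replicate 1. The ranges of member counts are therefore not a trait of the members alone. The cause of these shifts was not tested.

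Directions turned, when one array was left out, mostly in SclKO minus WT Scl-. There the range was -2.08 to 0.83 log units for Fli1 1422024_at, -2.3 to 0.35 for Fli1 1433512_at, -1.87 to 0.83 for Erg 1440244_at and -0.7 to 0.32 for Ets1 1422027_a_at. It was -1.16 to 0.22 for Ets2 1416268_at, -0.49 to 0.31 for Ets2 1437809_x_at, -0.8 to 0.19 for Ets2 1447685_x_at, -0.31 to 0.43 for Elk3 1445886_at and -0.27 to 1.13 for Elk3 1448797_at. The other turns were those of dim Elf1 and of Gabpa, where differences lie near 0. Elf1 1417540_at ranged from -0.47 to 0.42 in WT Scl+ minus WT Scl-, where median centring gave 0.02, from -0.48 to 0.41 in SclKO minus WT Scl+ and from -0.24 to 0.11 in SclKO minus WT Scl-. Elf1 1439319_at ranged from -0.67 to 0.26 in SclKO minus WT Scl+. Gabpa 1450664_at ranged from -0.51 to 0.07 in WT Scl+ minus WT Scl- and from -0.07 to 0.22 in SclKO minus WT Scl-, and Gabpa 1450665_at from -0.21 to 0.01 and from -0.06 to 0.17. With one array left out, a group has 1 array, which is assumed to vary like the others.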
